A study of Danio rerio with 186 samples.

Results

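The cells described here are 61 single sst1.1+ cells of the zebrafish pancreas, divided by how strongly they carried the heat-shock response. They are the cells titled as sst1.1 cells with the number 4 that had at least 500 detected genes and 50000 gene reads. They were 61 of 66 deposited for that gate and of 174 passing cells among 186 in the series. The numbers 3 and 4 in the titles were read as plates, which the titles do not spell out. For each cell the read counts of hsp90aa1.2, hspa4a and DNAJA4, scaled to 1000000 gene reads (CPM, with spike-in RNA left out), were added to a score. The 30 cells above the median score are called heat-shock high and the 31 cells at or below it heat-shock low. The sides were thus chosen by the measured levels of these 3 genes, whose values are a description and which are left out of every comparison that follows. The split is a measured state of the cells and no treatment: the labels name no heat exposure.

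All cells came from fish at 30 days post fertilization that carried TgBAC(sst1.1:memEGFP) together with Tg(ins:BB1.0L) under a growth condition given as Normal, so high cells, low cells and the cells of the other gates share both transgenes. The memEGFP reporter is carried on a bacterial artificial chromosome of sst1.1, and what BB1.0L encodes is not spelled out in the labels. Tissue was dissociated with enzymes, and each sorted cell became a Smart-Seq2 library, a full-length cDNA library without molecular identifiers. The other gates used below are 57 sst1.1+ ins+ cells of plate 3, 24 ins+ cells of plate 4 and 32 ins+ cells of plate 3. No fish are named, so the cells of a gate and plate are 1 sample, and no p-value or standard error is given. Levels of a side are CPM of summed counts, with 17393396 reads in high cells and 16793575 reads in low cells. Ratios are log2 ratios, high over low, of CPM with 1 added, and 2-fold means a log2 ratio of at least 1 or at most -1 among genes with at least 10 CPM on either side.

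Cells answer unfolded protein in the cytosol with heat-shock factor 1, which turns on HSP70, HSP90 and their co-chaperones, while unfolded protein in the endoplasmic reticulum (ER) is answered through IRE1, PERK and ATF6, which raise ER chaperones such as hspa5 (BiP). Immediate-early genes such as jun and atf3 are a further stress readout that enzymatic dissociation of tissue is known to bring on. Delta cells are the islet cells that secrete somatostatin, a hormone that restrains insulin and glucagon release, and transcription factors such as HHEX and PDX1 mark them in mammals.

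The score formed a continuum without a gap at the median. It ran between 161 and 18385 CPM, with a median of 10632 CPM in high cells and 4055 CPM in low cells. Just above the line were cells at 7052, 7525 and 7582 CPM, and just at or below it cells at 6689, 6536 and 6477 CPM. Within the score, hsp90aa1.2, an inducible cytosolic HSP90, had a lowest, median and highest level of 5772, 9159 and 15780 CPM in high cells, against 154, 3111 and 6229 CPM in low cells. The HSP110-type chaperone hspa4a had a median of 925 CPM in high cells and 203 CPM in low cells, and the HSP40 co-chaperone DNAJA4 had 809 CPM in high cells and 173 CPM in low cells.

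The median low cell scored above the highest ins+ cell of its plate. The median score of the low cells, 4055 CPM, stood beside 3598 CPM in sst1.1+ ins+ cells, 302 CPM in ins+ cells of plate 4 and 262 CPM in ins+ cells of plate 3. Of the 57 sst1.1+ ins+ cells, 9 lay above the median of the sst1.1+ cells, and of the 24 and 32 ins+ cells none did, their highest cells being at 1289 and 4264 CPM. The ins+ cells of plate 4 shared that plate with the sst1.1+ cells.

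**Figure D1:**
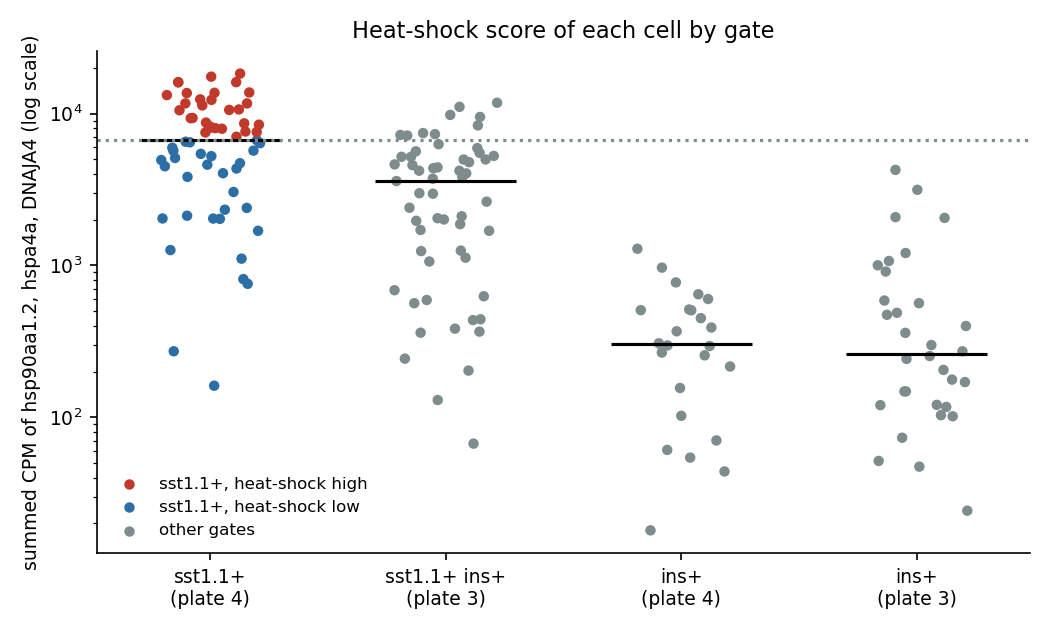
Summed CPM of hsp90aa1.2, hspa4a and DNAJA4 in each cell (log axis) for the 4 gate and plate groups, with bars at group medians and a dotted line at the sst1.1+ median of 6689 CPM. The red high cells and blue low cells meet at the line without a gap, and all 24 and 32 ins+ cells lie below it.

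The gate's own hormone gene, sst1.1, took at least 5% of gene reads in 59 of the 61 cells. Depth was alike on both sides. Gene reads per cell had a median of 560172 in high cells and 545196 in low cells, and detected genes a median of 3553.5 in high cells and 3703 in low cells. Thinned to 100000 reads per cell, the medians were 3122.5 genes in high cells and 3151 genes in low cells. Gene reads per spike-in read had a median of 39.8 in high cells and 49.7 in low cells. The plate rows C to H held 6, 6, 3, 4, 5 and 6 high cells and 2, 6, 5, 7, 5 and 6 low cells, so every row gives a value on each side.

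The sides differed in their counts of cells with many glucagon or cell cycle reads. Cells with more than 5% of reads in gcga and gcgb, called glucagon cells here, numbered 1 of 30 high cells (3.33%, Clopper-Pearson 95% interval 0.0844 to 17.2%) and 8 of 31 low cells (25.8%, 11.9 to 44.6%). The name is for their reads only, as 1 such low cell had 268817 CPM of sst1.1 and another 1057 CPM. Whether wells with both hormones held 1 cell was not tested. Cells with over 1% of reads in sst2, another somatostatin gene, numbered 3 high and 4 low cells. Cells with at least 5 reads in 10 or more cell cycle genes numbered 0 of 30 high cells (0 to 11.6%, and 10% by the limit of 3 cells for a count of 0) and 5 of 31 low cells (16.1%, 5.45 to 33.7%). Their scores ran from 757 to 5439 CPM in the 5 cycling cells and from 813 to 7525 CPM in the 9 glucagon cells. Under 5% of reads in sst1.1 was found in 0 high and 2 low cells, among them a low cell with only 712 detected genes. All such intervals treat the cells of 1 sample as independent draws and cover counting error only, with no spread between fish. For glucagon and for cycling cells the intervals of high and low cells overlap.

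The lists and most named genes below are therefore also given for 41 restricted cells, a choice made after seeing the data. It left out cells in which the other hormones (gcga, gcgb, sst1.2, sst2 and ghrl) took more than 5% of reads, cells with 10 or more cell cycle genes and cells with under 5% of reads in sst1.1, which kept 27 of 30 high cells (90%, 73.5 to 97.9%) and 14 of 31 low cells (45.2%, 27.3 to 64%). The restricted cells had a median score of 11346 CPM in high cells and 5030 CPM in low cells.

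**Figure D2:**
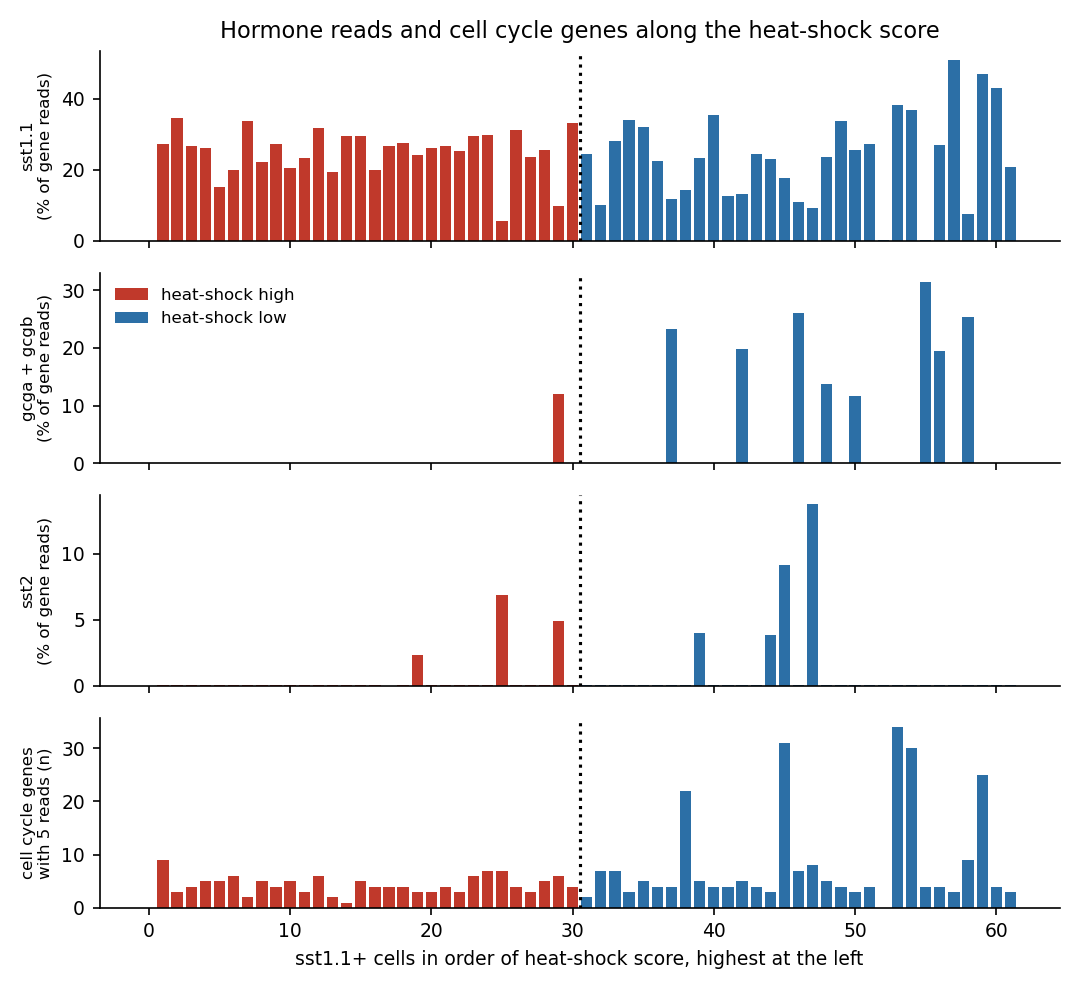
The 61 cells in order of score, highest at the left, with the share of gene reads (percent) in sst1.1, in gcga and gcgb, and in sst2, and the number of cell cycle genes with at least 5 reads. Right of the dotted line, among the 31 blue low cells, stand 8 of the 9 cells with over 5% of glucagon reads and all 5 cells with 10 or more cell cycle genes.

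Markers of most cell types outside the islet were scarce, ductal and neural markers less so. Acinar markers summed to at most 199 CPM in any high cell, with 15 of 18 markers seen, and reached 15138 CPM in the 712-gene low cell, with 14 of 18 seen; cpa1 and cel.2 had no read on either side. Summed leukocyte markers had a median of 0 CPM on both sides and ranged from 0 to 1810 CPM in high cells and from 0 to 3362 CPM in low cells. They passed 1000 CPM in 3 high cells and 1 low cell. The leukocyte genes ptprc and coro1a had no read on either side, but cd74a and cd74b summed to 104 and 120 CPM in high cells. Against all low cells, cd74a and cd74b had log2 ratios of 0.64 and 2.07. Without 1 low cell these 2 genes were at 4.03 and 8.48 CPM in low cells, with log2 ratios of 4.38 and 3.68. Endothelial markers reached 108 CPM in high cells and 0 CPM in low cells, with kdrl and cdh5 at 0 on both sides. Erythroid and hepatocyte markers reached 66.1 and 117 CPM in high cells and 10.5 and 59.97 CPM in low cells. Mesenchymal and neural markers reached 149 and 467 CPM in high cells and 1714 and 684 CPM in low cells, the neural medians being 127 and 112 CPM. Ductal markers had a median sum of 593 CPM in high cells and 442 CPM in low cells, with cftr at 0 on both sides. They reached 1629 CPM in high cells and 1825 CPM in low cells, and passed 1000 CPM in 6 high and 2 low cells. Of islet markers, the beta list had a median sum of 1186 CPM in high cells and 874 CPM in low cells, with nkx6.2 and mafa at 0 on both sides, and the alpha list 18.6 CPM in high cells and 53.3 CPM in low cells. The ghrl and gip pair had 81.8 CPM in high cells and 75.2 CPM in low cells, and sst1.2 with sst2 had 12451 CPM in high cells and 13626 CPM in low cells. The part of any of these markers in the results was not tested beyond the restricted cells.

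Among 7145 genes, 1425 were at least 2-fold higher in high cells (19.9%) and 777 at least 2-fold lower (10.9%), and the median gene stood at 0.25. Scaling by TMM factors moved that median to 0.02 and the split to 1024 higher and 1039 lower, and totals without the hormone genes gave 1490 higher and 1279 lower. Each list below is read against 0.25. In the restricted cells 22% of 7321 genes were 2-fold higher and 16.8% 2-fold lower, with a median of 0.07. Across cells, Spearman's rho of a gene with the score (61 cells, which share a plate and whose CPM share each cell's total) had a median of 0.06 over 1811 genes, and its central 95% lay between -0.25 and 0.47.

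Cytosolic chaperones outside the score followed it. Of 45 listed genes 31 passed the minimum, 13 of these were 2-fold higher in high cells and 0 lower, against 19.9% and 10.9% of all genes, and their median was 0.71. In the restricted cells it was 0.45, with 9 of 30 higher and 0 lower. The HSP70 gene hsp70l had a lowest, median and highest level of 3805, 10690 and 22610 CPM in high cells, against 15, 3148 and 38273 CPM in low cells. All 30 high cells lay above the low median, but the single highest cell of all was a low cell. Summed, hsp70l was at 12008 CPM in high cells and 4878 CPM in low cells (log2 1.30, and 1.40 in the restricted cells), with rho of 0.78.

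The near-identical copies hsp70.1, hsp70.2 and hsp70.3 had log2 ratios of 1.44, 1.39 and 0.93 (restricted 1.23, 1.18 and 0.65), and how reads were shared among these copies is uncertain. The second inducible HSP90 copy, hsp90aa1.1, had a lowest, median and highest level of 17.98, 85 and 246 CPM in high cells, against 0, 23.8 and 90.6 CPM in low cells. Its rho of 0.83 was the highest of the 1811 genes, and 29 of 30 high cells lay above the low median. It is a close paralog of the scored hsp90aa1.2.

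Co-chaperones were among the members furthest from parity. The HSP70 nucleotide exchange factor hspbp1 had a lowest, median and highest level of 0, 298 and 1226 CPM in high cells, against 0, 31.9 and 263 CPM in low cells (log2 2.19, restricted 1.95). The exchange factor bag3 had 0, 1350 and 3383 CPM in high cells, against 0, 42.2 and 2695 CPM in low cells (log2 1.95, restricted 1.40). hspbp1 was higher in high cells in 6 of 6 plate rows and bag3 in 5, and the sides overlapped. zfand2a, which encodes the arsenite-inducible AIRAP protein bound to the proteasome, had 0, 150 and 692 CPM in high cells, against 0, 8.32 and 221 CPM in low cells (log2 2.26, restricted 2.36, rho 0.68).

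The constitutive chaperones, singled out after their values were seen, stood closer to parity. hsp90ab1 summed to 2080 CPM in high cells and 1755 CPM in low cells (log2 0.24, at the median of all genes, restricted 0.21), and hspa8 to 3329 CPM in high cells and 2224 CPM in low cells (log2 0.58, restricted 0.46). The immunophilin fkbp5 was at 268 CPM in high cells and 313 CPM in low cells (log2 -0.22, restricted -0.46), and the HSP90 co-chaperone ptges3a at 85.7 CPM in high cells and 79.7 CPM in low cells (log2 0.10, restricted -0.40). Chaperonin and mitochondrial chaperone genes had a median of 0.24, with 0 of 17 members 2-fold higher and 2 lower, and 0.37 in the restricted cells, with 0 of 15 higher and 2 lower. The proteasome had a median of 0.24 as well, with 4 of 39 higher and 1 lower, and 0.05 in the restricted cells, with 6 of 40 higher and 4 lower.

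The median of the ER arm lay above that of all genes, while its share of members 2-fold higher was near the background. ER chaperones and folding factors had a median of 0.55, with 8 of 31 members 2-fold higher and 0 lower, against 19.9% and 10.9% of all genes. The restricted median was 0.34, with 9 of 32 higher and 2 lower, against 22% and 16.8% of all genes. The ER HSP70 hspa5 had a lowest, median and highest level of 883, 2716 and 10225 CPM in high cells, against 18.7, 1167 and 4090 CPM in low cells. Its levels in 27 of 30 high cells exceeded the low median and its rho was 0.80, although all 3 score genes act in the cytosol (log2 1.45, restricted 1.07). herpud1, of the ER degradation pathway, was at 219 CPM in high cells and 66.8 CPM in low cells (log2 1.70, restricted 1.42), and the ER HSP90 hsp90b1, named after its value was seen, at 1017 CPM in high cells and 374 CPM in low cells (log2 1.44, restricted 1.14). The retrotranslocation gene derl1 (log2 -0.30, restricted -0.82) and the oligosaccharyltransferase subunit ostc (log2 -0.15, restricted -0.31) were below 0, and the ER stress transcription factor xbp1, also named after its value was seen, was at 0.55 (restricted 0.47).

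The integrated stress response list matched the background, with a median of 0.26, 3 of 26 members 2-fold higher and 1 lower, and 0.14 in the restricted cells, with 3 of 26 higher and 4 lower. The low-level member eif2ak1 was at 13.6 CPM in high cells and 1.07 CPM in low cells (log2 2.81, restricted 2.09). At a higher level, ppp1r15a (GADD34), which directs dephosphorylation of eIF2alpha, also stood above the background. ppp1r15a had a lowest, median and highest level of 0, 718 and 2403 CPM in high cells, against 0, 165 and 797 CPM in low cells. It was above the low median in 29 of 30 high cells (log2 1.76, restricted 1.57, rho 0.74). The transcription factor genes of the same pathway were nearer the background, at log2 0.14 for atf4a and 0.81 for ddit3 (CHOP), or 0.03 and 0.52 in the restricted cells, both named after their values were seen. The amino acid transporter subunit slc3a2b was at -0.49 (restricted -0.73), and at -1.17 without 1 high cell. The lowest member, nupr1 (log2 -2.22, and -3.84 without 1 high cell), was at 6.63 CPM in high and 1.59 CPM in low restricted cells, so its direction turned.

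Immediate-early genes had a median of 0.47, with 11 of 40 members 2-fold higher and 1 lower, against 19.9% and 10.9% of all genes. Their restricted median was 0.54, with 13 of 40 higher and 1 lower, against 22% and 16.8% of all genes. jun, an AP-1 subunit, had a lowest, median and highest level of 239, 1498 and 3560 CPM in high cells, against 0, 344 and 2170 CPM in low cells (log2 1.49, restricted 1.18, rho 0.75). The anti-apoptotic mcl1a had 288, 1716 and 8073 CPM in high cells, against 3, 499 and 2573 CPM in low cells (log2 1.75, restricted 1.45). The list was not uniform. The phosphatase gene dusp2 was at 73.9 CPM in high cells and 140 CPM in low cells (log2 -0.91, restricted -1.02), myca at 32.7 CPM in high cells and 66.9 CPM in low cells (log2 -1.01, restricted -0.70), and fosab and egr1, named after their values were seen, at 0.37 and 0.02 (restricted 0.31 and -0.56). The polyubiquitin genes listed as UBB and ubb had rho of 0.81 and 0.73, and the ubiquitin and protein clearance list had a median of 0.39, with 6 of 25 members 2-fold higher and 3 lower (restricted 0.34, 6 of 25 higher and 4 lower). The p53 and apoptosis list had a median of 0.51, with 6 of 17 higher and 0 lower, against 19.9% and 10.9% of all genes, and 0.40 in the restricted cells, with 6 of 18 higher and 2 lower. Oxidative stress genes had a median of 0.08, with 3 of 22 on each side of 2-fold, and -0.04 in the restricted cells.

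**Figure D3:**
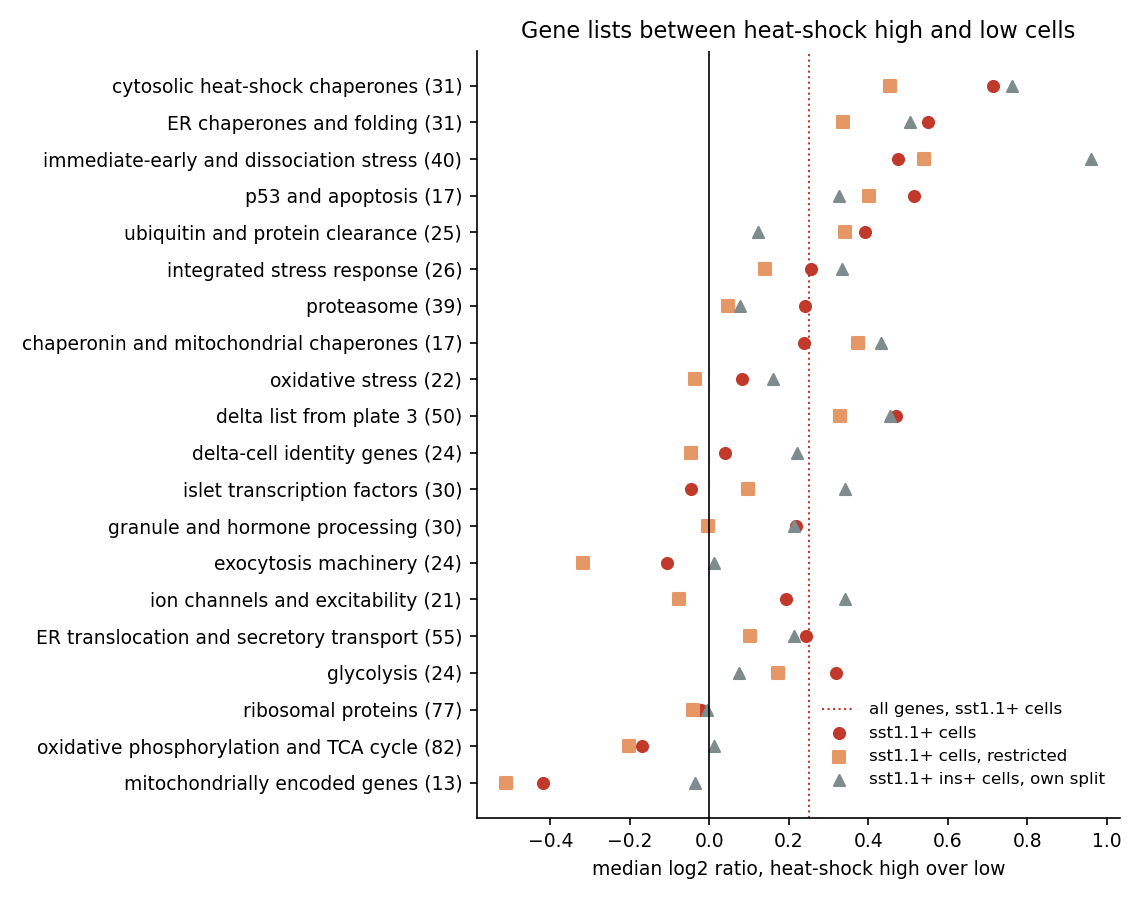
Median log2 ratio of each gene list, high over low, in the 61 sst1.1+ cells (circles), the 41 restricted cells (squares) and the sst1.1+ ins+ cells split at their own median (triangles), with the number of members measured in the sst1.1+ cells and a dotted line at the median of all genes, 0.25; the cell cycle list, at -2.98, is left out of the plot. Cytosolic chaperones, at 0.71, lie at the top right and mitochondrially encoded genes, at -0.42, at the lower left of the lists shown, while delta-cell identity genes sit at 0.04.

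The delta-cell identity genes did not move as 1 group. Of 39 listed genes 24 passed the minimum, with a median of 0.04 (-0.05 in the restricted cells), 3 members 2-fold higher and 4 lower; the shares of all genes were 19.9% and 10.9%. The median was -0.17 with TMM factors and 0.40 with the mean over cells of log2 levels, against 0.02 and 0.07 for all genes. The members are sorted below by their values into genes higher in high cells, genes alike on both sides and genes lower in high cells. This sorting is a description, as the counts past 2-fold were not far from the shares of all genes. Some members, such as neurod1, rgs4 and cdh10a, would fall elsewhere in the restricted cells.

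elf3, an epithelial ETS-family transcription factor gene (ENSDARG00000077982), was the highest member. Its lowest, median and highest levels were 0, 167 and 1540 CPM in high cells, against 0, 0 and 1648 CPM in low cells, and 22 of 30 high and 11 of 31 low cells had at least 5 reads. Summed, it stood at 319 CPM in high cells and 128 CPM in low cells, 2.49 times (interval 2.37 to 2.62 for counting error only), a log2 ratio of 1.31 and 1.33 in the restricted cells. Without the single low cell at the top, low cells summed to 83.2 CPM and the log2 ratio was 1.92. Leaving out 1 cell at a time moved the ratio between 1.09 and 1.92, a wider spread than that interval. In order of score, the median was 0, 67.7 and 268 CPM in the lowest 20, middle 21 and highest 20 cells. elf3 had 0 CPM in ins+ cells of plate 4.

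pdx1, a homeodomain factor gene of beta and delta cells (ENSDARG00000002779), had a lowest, median and highest level of 215, 1601 and 3952 CPM in high cells, against 0, 836 and 2448 CPM in low cells. It was higher in high cells in 6 of 6 plate rows and above the low median in 24 of 30 high cells, short of 2-fold (log2 0.86, restricted 0.70, TMM 0.65), and its rho of 0.59 lay outside the central 95% of genes. In the same 3 portions of the score its median was 678, 1248 and 1705 CPM. In ins+ cells of plate 4 pdx1 stood at 1438 CPM.

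mknk2b, a kinase gene of the MAP kinase-interacting family, had 69.4, 599 and 2537 CPM in high cells, against 0, 287 and 1836 CPM in low cells (log2 0.84, restricted 0.78, rho 0.57). The growth factor gene pdgfab was at 130 CPM in high cells and 59.7 CPM in low cells (log2 1.11, restricted 0.80) and fam46bb at 91.7 CPM in high cells and 37.3 CPM in low cells (log2 1.27, restricted 0.82). Both were under 2-fold in the restricted cells, and their rho values, 0.29 and 0.20, lay within the central 95% of genes. Of the 5 genes, mknk2b, elf3 and pdx1 were those whose level followed the score beyond that range across all cells. These rho values and that range include the cells outside the restricted set. The rho values of mknk2b, elf3 and pdx1 in the restricted cells, where the upper limit was 0.42, are not given here. The statement therefore holds for all 61 cells only.

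sst1.1, the somatostatin gene that names the gate, was alike on both sides. Its lowest, median and highest levels were 56797, 264239 and 345873 CPM in high cells, against 1057, 236288 and 508936 CPM in low cells. Summed, it took 252579 CPM in high cells and 254059 CPM in low cells (log2 -0.01, restricted -0.18, rho 0.04), and the range in high cells lay inside that in low cells.

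dkk3b, which encodes a secreted protein of the Dickkopf family, had 1585, 5828 and 13299 CPM in high cells, against 9, 5467 and 9081 CPM in low cells (log2 0.16, restricted 0.13, rho 0.03). With TMM factors its log2 ratio was -0.05. In ins+ cells of plate 4 it was at 297 CPM, so both sides lay far above those cells. HHEX, a homeobox gene required for delta cells in mice, had 0, 53 and 353 CPM in high cells, against 0, 30.1 and 305 CPM in low cells (log2 0.28, restricted -0.07), which is close to the median of all genes. Its median in the 3 portions of the score was 26.1, 49.4 and 54.2 CPM.

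pax6b, a pan-islet transcription factor gene, summed to 607 CPM in high cells and 625 CPM in low cells (log2 -0.04), and pbx3b, a TALE homeobox gene, to 212 CPM in high cells and 220 CPM in low cells (log2 -0.05, restricted -0.29). For pbx3b only the sums were alike, as its median level per cell was lower in high cells. The peptide YY gene pyyb was at 1552 CPM in high cells and 1372 CPM in low cells (log2 0.18, restricted -0.10). isl1, a LIM-homeodomain gene, had a log2 ratio of 0.37 that was 0.04 in the restricted cells, and mfge8b one of 0.54 that was 0.23. Natriuretic peptide receptor npr1a, leptin receptor lepr, sptlc2b and cd164l2 had log2 ratios of -0.14, -0.13, 0.08 and 0.21, or -0.35, -0.65, -0.34 and -0.26 in the restricted cells. neurod1 was at 235 CPM in high cells and 234 CPM in low cells, but at 224 CPM in high and 125 CPM in low restricted cells (log2 0.84), where 22 of 27 high cells lay above the low median.

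The members lower in high cells rested on few cells. nkx2.2a, an islet homeodomain gene, was read in 10 of 30 high and 19 of 31 low cells with at least 5 reads, and summed to 37.9 CPM in high cells and 86.9 CPM in low cells (log2 -1.18, restricted -1.58). Without 1 low cell its ratio was -0.88, short of 2-fold. The urocortin gene ucn3l, read in 12 cells of each side, was at 31.97 CPM in high cells and 66.7 CPM in low cells (log2 -1.04, and -0.71 without 1 low cell). rfx6 was at -0.46 (restricted -0.89). rgs4 was at -0.93 but at 1.19 in the restricted cells, and cdh10a, read in 5 high and 10 low cells, at -1.13 but at 2.56 in the restricted cells. mafba, an alpha-cell factor gene that is also on the alpha marker list, had 0 reads in high cells, which allows up to 0.172 CPM. In low cells it was at 11.3 CPM from 3 cells with at least 5 reads, none of them a restricted cell. It is counted among the 4 identity members 2-fold lower, and set at that limit it left the list's median at 0.04.

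**Figure D4:**
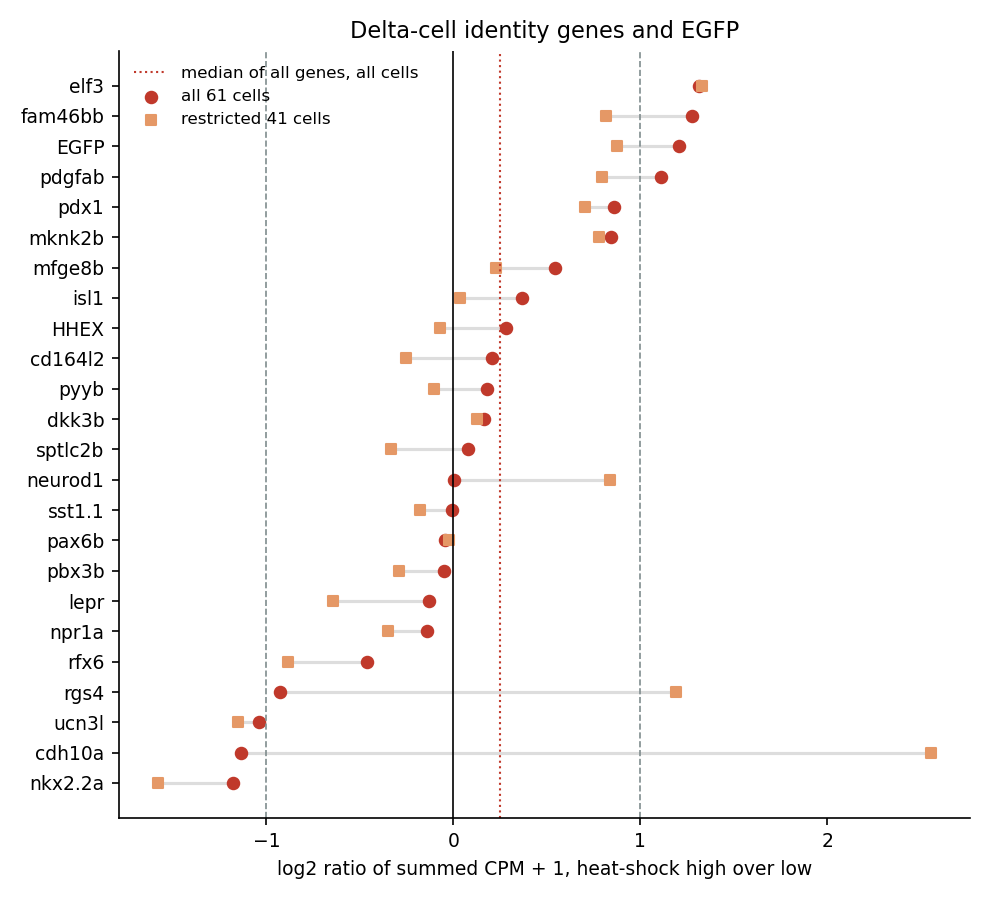
Log2 ratio of summed CPM with 1 added, high over low, for delta-cell identity genes and EGFP in all 61 cells (circles) and the 41 restricted cells (squares), with dashed lines at 2-fold and a dotted line at the median of all genes; mafba, with 0 reads in high cells, is left out. elf3, EGFP, pdx1, mknk2b, pdgfab and fam46bb stay right of the dotted line under both choices, sst1.1, dkk3b and pax6b stay near 0, and rgs4 and cdh10a change side.

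Reads of the EGFP row did not keep step with sst1.1. That row was taken as the memEGFP reporter, and whether the ins:BB1.0L transgene also gave reads to it was not tested. EGFP had a lowest, median and highest level of 209, 4850 and 13770 CPM in high cells, against 1.87, 1697 and 7898 CPM in low cells. It exceeded the low median in 28 of 30 high cells and was higher in 6 of 6 plate rows (summed 5574 CPM in high cells and 2410 CPM in low cells, log2 1.21). In the restricted cells the log2 ratio was 0.88, with medians of 4882 CPM in high cells and 2672 CPM in low cells, while sst1.1 stood at -0.18. Its rho with the score was 0.66, against 0.04 for sst1.1.

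**Figure D5:**
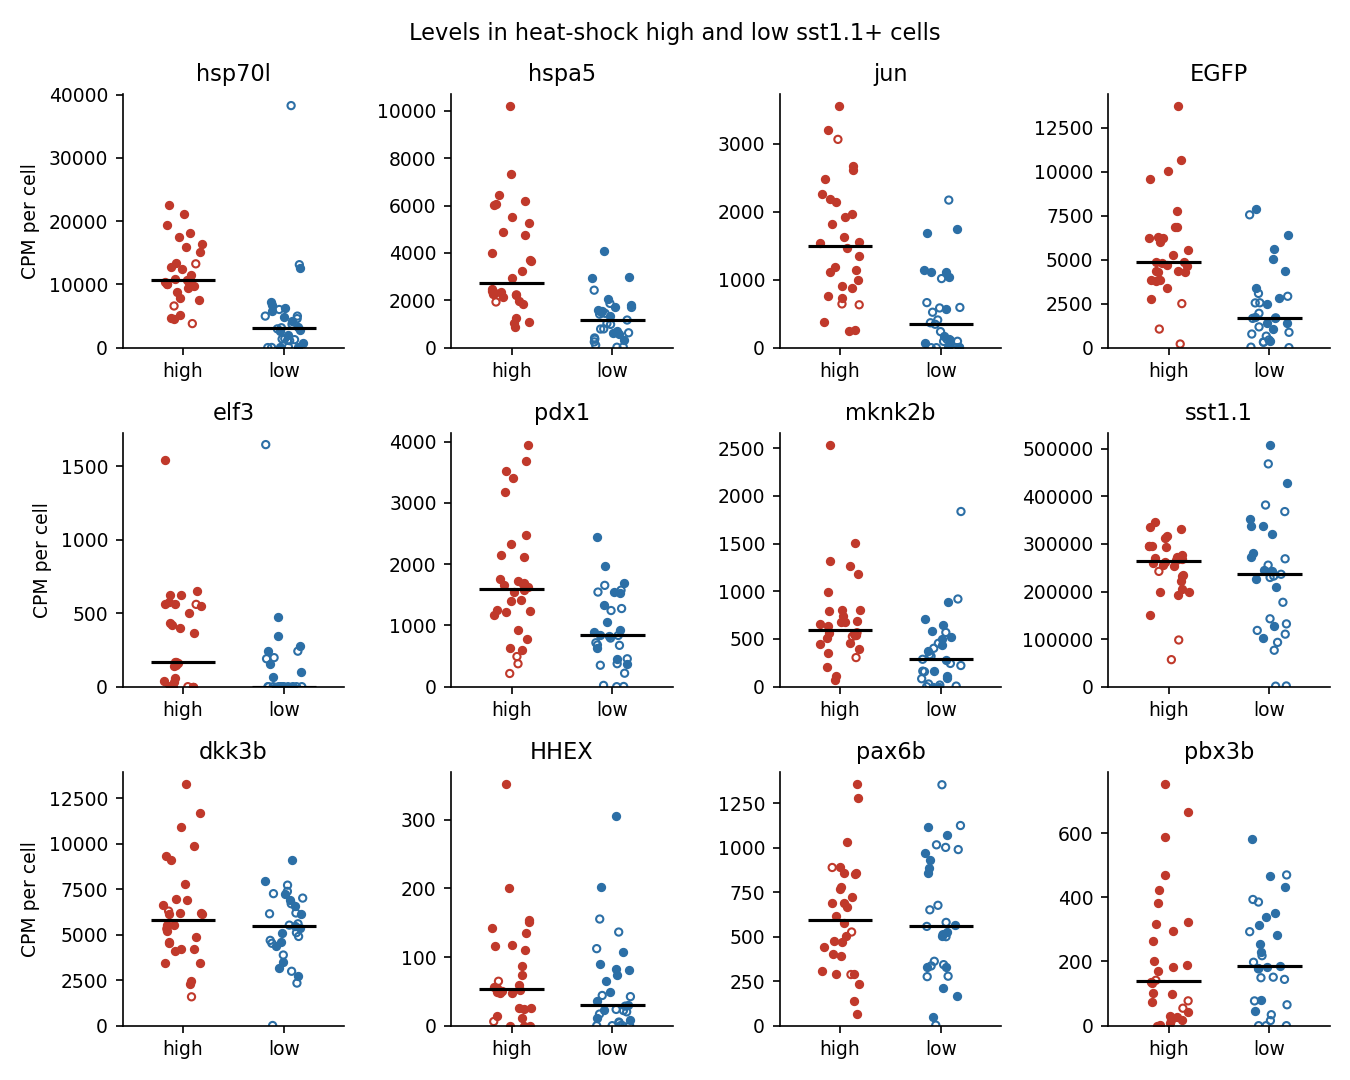
Level per cell (CPM, linear axes from 0) of 3 stress genes, EGFP and 8 delta-cell genes in the 30 heat-shock high (red, left) and 31 heat-shock low cells (blue, right), with bars at medians and open circles for cells outside the restricted set. Medians of hsp70l, hspa5, jun, EGFP, elf3, pdx1 and mknk2b are higher in high cells, as is that of HHEX at a lower level. Those of sst1.1 and dkk3b lie closer together. The ranges of the sides overlap in every panel, those of the stress genes included.

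A second delta list was taken from plate 3, as the 50 genes highest in sst1.1+ ins+ over ins+ cells there, so none of the 61 sst1.1+ cells of plate 4 chose it. Those plate 3 cells also differed in the score, with medians of 3598 CPM in sst1.1+ ins+ cells and 262 CPM in ins+ cells, and although members of the stress lists were left out, genes that go with the score can be on it, jund, an AP-1 gene, among them. Members of the cell cycle list were not left out, and the part of cycling cells in the choice of the 50 genes was not tested. All 50 were measured, with a median of 0.47 (restricted 0.33), 9 members 2-fold higher and 3 lower, against 19.9% and 10.9% of all genes. Its highest members were LECT2, which encodes a secreted chemotactic protein, at 387 CPM in high cells and 56.5 CPM in low cells (log2 2.75, restricted 2.70), and wbp2 at 129 CPM in high cells and 48.2 CPM in low cells (log2 1.40, restricted 0.98). LECT2 had at least 5 reads in 24 of 30 high and 15 of 31 low cells. Its lowest members were pnoca, a prepronociceptin gene, at 559 CPM in high cells (362 CPM without 1 of them) and 4865 CPM in low cells, and the chromatin gene hmgn2 at 126 CPM in high cells and 353 CPM in low cells. In the restricted cells pnoca and hmgn2 were at -0.86 and -0.77, inside 2-fold, and 0 of the list's members were 2-fold lower.

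Secretory and islet lists lay at or under the background. For genes of granules and hormone processing the median was 0.22 (restricted 0.00), with 1 of 30 members past 2-fold each way, and 2 each way in the restricted cells. The prohormone convertase gene pcsk1 was at 420 CPM in high cells and 227 CPM in low cells (log2 0.89, restricted 0.78) and pcsk2, named after its value was seen, at 703 CPM in high cells and 382 CPM in low cells (log2 0.88, restricted 0.76). The cathepsin gene ctsba was at 27.6 CPM in high cells and 59.9 CPM in low cells (log2 -1.09, restricted -1.82). Genes of ER translocation and secretory transport had a median of 0.24, with 5 of 55 higher and 1 lower, and 0.10 in the restricted cells. Exocytosis genes had a median of -0.11, with 0 of 24 higher and 2 lower, and -0.32 in the restricted cells, with 1 of 24 higher and 3 lower. The active-zone gene rims2a was lower in high cells in 6 of 6 plate rows, at 440 CPM in high cells and 596 CPM in low cells.

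Ion channels and pumps had a median of 0.19 (restricted -0.08), with 5 of 21 members 2-fold higher under both choices, near the 19.9% and 22% of all genes, among them the sodium pump subunit atp1b1a at 389 CPM in high cells and 177 CPM in low cells (log2 1.13, but 0.89 in the restricted cells). Islet transcription factors, which share 10 measured genes with the identity list, had a median of -0.05, with 1 of 30 higher and 7 lower, against 19.9% and 10.9% of all genes. Among restricted cells the median was 0.10, near the 0.07 of all genes, with 3 of 28 higher and 6 lower. Ribosomal proteins were at -0.02 with 0 of 77 past 2-fold, at -0.04 in the restricted cells and at -0.23 with TMM factors. Glycolysis genes were at 0.32, with 3 of 24 higher and 1 lower, and at 0.17 in the restricted cells. Of the cell cycle genes 21 of 29 were 2-fold lower in high cells, against 10.9% of all genes, with a median of -2.98, and 8 of these 29 genes had 0 reads on a side. Among restricted cells, which hold no cycling cell, 12 cell cycle genes were measured, with a median of -0.23, 3 of them higher and 4 lower; the 5 cycling cells all being low cells, pcna had at least 5 reads in 3 high and 9 low cells.

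Mitochondrial genes ran the other way from the chaperones. All 13 mitochondrially encoded genes were lower in high cells, none by 2-fold, with a median of -0.42, and all 13 were lower in the restricted cells, with a median of -0.51. mt-nd2, a subunit of complex I, had a lowest, median and highest level of 55.9, 516 and 1336 CPM in high cells, against 286, 822 and 4053 CPM in low cells (log2 -0.90, restricted -1.07, rho -0.48). The mitochondrial share of reads had a median of 2.57% in high cells and 2.90% in low cells, and 2.60% in high and 3.48% in low restricted cells. Nuclear genes of oxidative phosphorylation and the TCA cycle had a median of -0.17, with 1 of 82 higher and 2 lower, -0.20 in the restricted cells and 0.04 when the score was made from hsp70 copies and dnajb1b. The citrate synthase gene cs stood apart at 1.56 (restricted 1.02) and the complex III gene uqcrfs1 was at -0.73 (restricted -1.20). olfm1b, an olfactomedin gene, had the lowest rho of all, -0.48, at 139 CPM in high cells and 337 CPM in low cells (log2 -1.27, restricted -0.92).

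The 10 genes furthest higher in high cells, after LECT2 and zfand2a, were mostly of low level. They were ylpm1, akap9, wdr13, arl4d, prr12a, glrbb, rca2.1 and ric8a, with log2 ratios of 2.25 to 2.85. The highest, ylpm1, was at 75.2 CPM in high cells and 9.59 CPM in low cells and had at least 5 reads in 18 of 30 high and 8 of 31 low cells. All 10 stayed 2-fold higher in the restricted cells, which hold 27 of the 30 high cells used to pick them, so this is a description only. Of the 10 genes furthest lower, pnoca, hnrnpc, hmgn2, jam3b, lsm7, C21H5orf15, olfm1b, trappc2l, lhfpl3 and fev, 6 stayed 2-fold lower in the restricted cells, and fev, a serotonergic transcription factor gene, was at 0.16 there.

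Set over the ins+ cells of plate 4, a comparison in which both sides share those 24 cells, the chaperone list had a median of 2.1 in high cells and 1.28 in low cells, immediate-early genes 2.1 in high cells and 1.55 in low cells and ER chaperones 1.28 in high cells and 0.84 in low cells. The delta-cell identity list had 2.87 in high cells and 2.34 in low cells, and all genes 0.34 in high cells and 0.10 in low cells. The integrated stress response list had 0.57 in high cells and -0.16 in low cells, the p53 list 0.92 in high cells and -0.14 in low cells, and oxidative stress genes 0.11 in high cells and 0.01 in low cells. In low cells the chaperone, immediate-early, ER chaperone and delta-cell identity medians thus lay above that of all genes, and those of the other 3 lists did not. These lists were chosen with earlier results of these data known. The identity list holds genes picked as delta-cell genes, such as elf3 and dkk3b. Its place above the ins+ cells therefore goes with that choice and is a description only.

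The same split was made in the 57 sst1.1+ ins+ cells of plate 3, whose high and low cells had median scores of 5237 and 1125 CPM. There 12.6% of 6428 genes were 2-fold higher in high cells and 7.73% lower, with a median of 0.14. Cytosolic chaperones had a median of 0.76, with 15 of 32 2-fold higher and 0 lower, and immediate-early genes 0.96, with 16 of 34 higher and 0 lower. Delta-cell identity genes had a median of 0.22, with 2 of 24 higher and 1 lower. The 24 ins+ cells of plate 4 were split too, with median scores of 510 CPM in high and 129 CPM in low cells. There 26.9% of 7063 genes were 2-fold higher and 27.1% lower, larger shares than in the sst1.1+ cells. Cytosolic chaperones had a median of -0.015 in that ins+ split, with 8 of 27 higher and 7 lower.

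Among the delta genes of the split of sst1.1+ ins+ cells, elf3 was at 113 CPM in high cells and 12.8 CPM in low cells (log2 3.04). mknk2b was at 474 CPM in high cells and 175 CPM in low cells (log2 1.43). pdx1 stood at 0.35, dkk3b at 0.09, HHEX at 0.04, pax6b at -0.03 and sst1.1 at -0.12. Other genes that were alike on both sides of the sst1.1+ cells were not so here. pyyb was at 0.95, mfge8b at 0.77 and pbx3b at 0.64, above the median of 0.14 for all genes of these cells. EGFP was at 1893 CPM in high cells and 1308 CPM in low cells (log2 0.53), and nkx2.2a, at 0.05, and the mitochondrially encoded genes, with a median of -0.04 and 7 of 13 lower, lay near parity. Cell cycle genes were again lower in high cells, 39 of 41 by 2-fold. Of the highest members of the second delta list, wbp2 was at 1.58 here, but LECT2 was at -0.25, the other direction from the sst1.1+ cells. No restricted values are given for this split. The part of cycling cells, or of cells low in sst1.1, in its ratios, that of elf3 included, was not tested. Whether the sst1.1+ and the sst1.1+ ins+ cells differ in any of these ratios was not tested.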

How the data were processed

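The authors deposited raw counts per gene and cell, with no normalization. Per the submitters' processing notes, Trim Galore, HISAT2, featureCounts and the GRCz11 assembly were used, with versions, strand setting and annotation release not given in the sources used here. Of 32046 rows, 92 are spike-ins, whose 5.61% of reads were kept out of totals. Columns were matched to cells through the library names, none was without a sample, and 0 cells were identical. Row AC024175.4, with a median of 10.4% of reads in high cells and 11.2% in low cells, and EGFP stayed in totals but out of rankings and background counts, as did 8998 rows without a gene symbol.

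Cells, sides and levels are defined with the results. Counts were summed per side, and intervals of ratios are exact conditional binomial ones for counting error only, as PCR copies of a molecule are counted each. Values within 6 plate rows served as spread. Members and lists (20 functional lists, 12 marker lists, 871 of 968 symbols matched directly) were chosen with earlier results of these data known, and the ribosomal list was trimmed of kinases after its values were seen. Named genes were the 10 highest and 10 lowest ratios (at least 50 CPM and 5 reads in 50% of cells of the higher side), all measured identity genes, up to 4 per other list, and the 10 highest rho. Single sorted wells were used without a doublet caller. The ratio script was tested on simulated data. Python 3.11.15, numpy 2.4.6, scipy 1.17.1, pandas 2.3.3 and, for TMM, edgeR 4.0.16 in R 4.3.3 were used.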

Additional observations from a re-analysis of the deposited data

How the results depend on the processing

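Of 193 values of the main counts and list medians under 16 other settings, 180 stayed within their margin and 13 moved; among named genes 2061 values stayed within the spread over plate rows, 54 moved and 11 changed sign in genes past 2-fold; sign changes of genes inside 2-fold, such as rgs4 (-0.93, and 1.19 in the restricted cells), HHEX and pyyb, are not among the 11. Genes 2-fold higher, 1425, became 635 with the mean over cells of log2 levels, 2312 between the outer 20 cells of each end and 252 with a minimum of 50 CPM. Genes 2-fold lower, 777, became 1279 with totals without hormone genes, 64 with the minimum of 50 CPM, 1178 as a mean over plate rows and 1232 in the restricted cells. Between the outer 20 cells the medians of cytosolic chaperones, immediate-early genes and ER chaperones were 1.23, 1.41 and 0.95. Islet transcription factors moved to -0.49 with the mean of log2 levels, and ribosomal proteins to -0.23 with TMM factors and 0.19 with the mean of log2 levels. Past 2-fold, the direction turned for cdh10a (0.35 without cycling cells, 2.56 restricted), nupr1 (1.80 without other-hormone cells, 1.56 restricted), her6 (0.058 with the mean of log2 levels, 3.27 without cycling cells, 3.34 restricted), fev (0.28 without other-hormone cells, 0.16 restricted), and jam3b and C21H5orf15 (0.022 and 0.51 with the score made from hsp70 copies and dnajb1b). That score put 51 of 61 cells on the same side and left 2 of the 10 lowest genes 2-fold lower. The 10 highest stayed 2-fold higher under all 16 settings. Both sets of genes were picked by their ratios in these cells, and every setting reuses these cells or part of them. Their staying past 2-fold is therefore a description only. The causes were not tested. No paired analysis was possible because the sides share no replicate numbers; plate rows, which they do share, gave the mean over rows above. nkx2.2a had at least 5 reads in 10 high and 19 low cells and ucn3l in 12 cells of each side.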

Other observations

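One high cell held 99.5% of the high side's reads of gip, the gene of the incretin hormone GIP: the side summed to 5662 CPM, and to 27.1 CPM without that cell, against 26.02 CPM in low cells. Its highest level was 204734 CPM. The insulin gene ins had a median of 124 CPM in high cells and 162 CPM in low cells, with highest cells at 10467 CPM in high cells and 8075 CPM in low cells, and 368884 CPM in the summed ins+ cells of plate 4. The somatostatin gene sst1.2 had a median of 12438 CPM in high cells and 13616 CPM in low cells, with rho of -0.14 with the score.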
